A study of Homo sapiens with 12 samples.

Results

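Heat shock and cochaperone genes were followed by RNA-seq in HCT116 cells, an established human colon carcinoma line, under 3 siRNAs before and after serum. The set holds 36 genes of the 58051 in the deposited count tables: cytosolic and mitochondrial chaperones, their cochaperones and 2 heat shock transcription factors. They were taken by name and matched by Ensembl identifier. No threshold on the counts selected them, but the list was chosen with earlier results of these data known. All 36 were found and all 36 were among the 27915 genes that passed the filter on low counts. Cells received siControl, siPFDN2 or siPFDN5, with 1 siRNA sequence each, and were starved of serum for 48 h from 24 h after siRNA addition. RNA was taken at the end of starvation or 90 min after serum was added back, which gave 6 groups of 2 libraries. The starved libraries are called "before serum" and the others "after serum", so every group had been transfected and starved. Both targets code for parts of prefoldin, a cochaperone that hands newly made actin and tubulin to the chaperonin TRiC. The labels do not say whether the 2 libraries of a group came from separate cultures, so the p-values measure the spread between these libraries, which may be technical.

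HSP70 chaperones bind exposed hydrophobic stretches of unfolded proteins in cycles of ATP binding and hydrolysis. J-domain proteins bring them clients and speed hydrolysis, BAG and HSP110 proteins release the nucleotide, and adaptors pass clients on to HSP90 or to degradation. When unfolded proteins accumulate, HSF1 trimers bind heat shock elements, alternating GAA and TTC units in promoters, and raise transcription of many of these genes.

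Gene-body totals were 59784425 to 136504590 counts per library. PFDN5 in starved siPFDN5 cells was at 41.0 and 44.2 CPM (gene-body counts scaled for library size), against 76.8 and 68.9 in siControl. After serum it was at 67.5 and 68.6 against 67.9 and 74.0, so PFDN5 RNA was not lower in the libraries labelled siPFDN5 after serum, and they are named by their label throughout. PFDN2 was at 7.55 and 8.49 CPM in siPFDN2 against 11.5 and 11.2 before serum, and at 8.73 and 9.47 against 19.5 and 16.3 after it. By the edgeR test described below, on the data as counted, neither target was called against siControl under siPFDN2 or siPFDN5, before or after serum. PFDN2 was higher in the siPFDN5 libraries, at 21.4 ± 0.494 CPM (SD, n = 2) before serum against 11.3 ± 0.208 in siControl. After serum it was at 25.9 ± 3.99 against 17.9 ± 2.31. With the trend of counts over GC content taken out of each library, both targets were called for siPFDN5 before serum, PFDN5 lower and PFDN2 higher. After serum PFDN2 alone was called for siPFDN5, again higher. The shares of all genes called were 0.652% before serum and 13.5% after it. Neither target was called for siPFDN2 in that fit. The second siPFDN2 library before serum stood apart: its counts tracked the GC content of the transcripts across genes (Spearman's rho of 0.688, against -0.28 to 0.133 in the other 11), and its group had a replicate SD of 0.681 on the log2 scale against 0.116 to 0.301 elsewhere. The share of gene-body counts that fell outside exons ran from 14.8% to 25.9%, and the summed level of 5 epithelial markers (EPCAM, CDH1, KRT8, KRT18, KRT19) was highest in the libraries labelled siPFDN5 after serum, at 2850 and 2870 CPM, against 2030 and 2380 in siControl after serum. Of 5 markers of other cell types COL1A2, PTPRC, PDGFRB and PECAM1 were at 0 to 0.453 CPM in every library. The fibroblast marker COL1A1 went in siControl from 5.14 and 4.03 CPM to 13.4 and 10.9, and it was at 3.97 and 15.7 and then 9.06 and 7.204 in siPFDN2, and at 5.19 and 5.05 and then 7.65 and 10.2 in the siPFDN5 libraries; its part in the results was not tested. In bulk RNA fewer cells of a type and less RNA per cell cannot be told apart.

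Levels were compared between genes as RPKM, exon counts scaled for exon length and library size. In siControl starved cells HSP90AB1, the constitutive cytosolic HSP90, was highest at 930 ± 11.6 RPKM (SD, n = 2). The constitutive HSP70 HSPA8 followed at 445 ± 16.7, the second cytosolic HSP90 HSP90AA1 at 346 ± 28.5 and the mitochondrial chaperonin HSPD1 at 215 ± 2.72. These 4 genes and the mitochondrial HSP70 HSPA9, at 98.96 ± 0.143, did not overlap with their neighbours in the order.

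At the other end stood 2 genes known for strong induction by stress: the small heat shock protein HSPB8 at 1.03 ± 0.120 RPKM and the inducible HSP70 HSPA1A at 1.77 ± 0.513. Its near-identical copy HSPA1B stood at 21.2 ± 2.09, and how reads were split between the pair is uncertain. The transcription factors were at 13.3 ± 1.06 for HSF1, the main activator of the heat shock response, and 11.3 ± 0.369 for its relative HSF2. In 10 of the 35 pairs of neighbours in this order the 2 libraries of each gene overlapped, among them DNAJA1 and HSPA4, CDC37 and HSPB1, and BAG1 and DNAJB4.

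HSPB8 had the widest range over the 12 libraries, from 0.805 to 4.32 RPKM, and DNAJB4 the next, from 2.26 to 10.7. DNAJB6 had the narrowest, from 2.599 to 3.29.

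**Figure D1:**
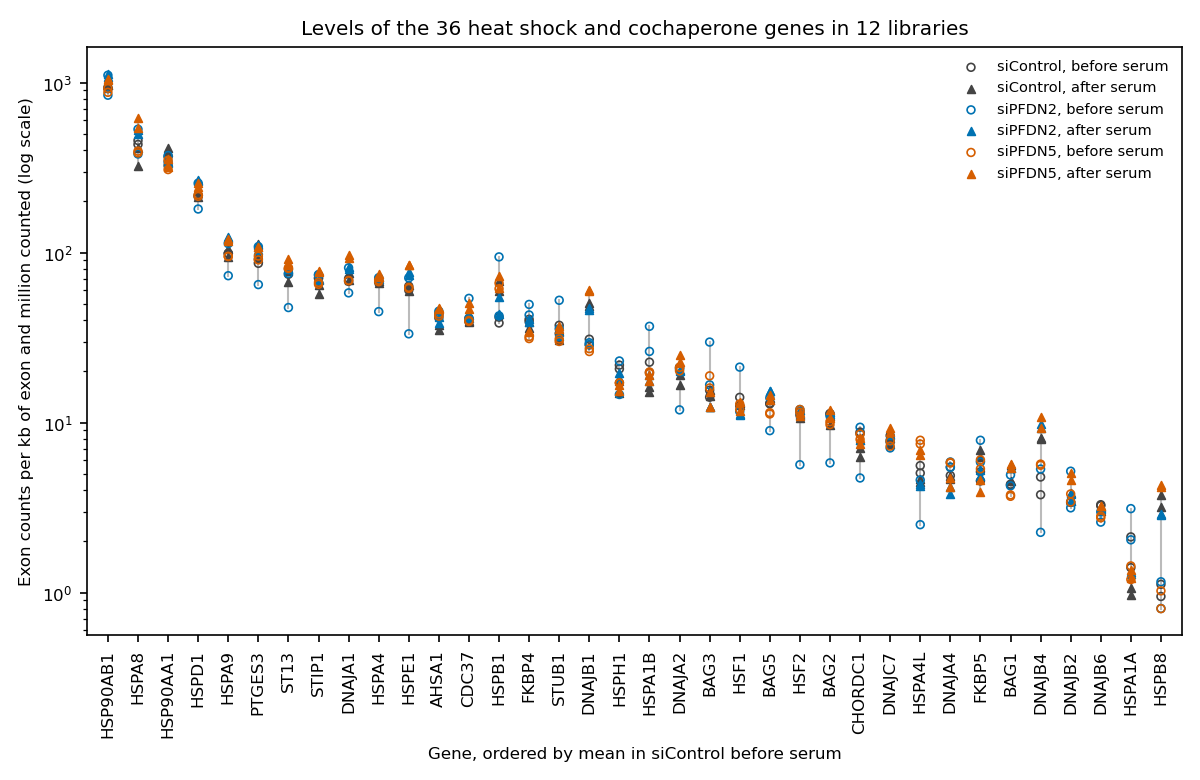
RPKM (exon counts per kilobase and library size), on a log axis, for the 36 genes ordered by their mean in siControl before serum; each point is 1 library, open circles before serum and filled triangles after, coloured by siRNA. HSP90AB1 lies at 844 to 1129 and HSPB8 at 0.805 to 4.32.

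Serum raised 2 members under all 3 siRNAs: HSPB8, a small heat shock protein that works with BAG3 in selective autophagy, and DNAJB1, the inducible J-domain partner of HSP70. In all, 9 members passed the test in at least 1 serum comparison, 6 of them upward and 3 downward, and 27 passed in none. The test was edgeR's quasi-likelihood test on gene-body counts, with p-values adjusted by Benjamini-Hochberg over the 27915 genes and called under 0.05. In siControl 2 of the 36 members were called, both higher (5.56% of the members, against 2.87% of all genes in either direction and 2.47% upward). In siPFDN2 it was 4 members (11.1%, against 3.26%), 3 higher and 1 lower, where 2.06% of all genes were higher and 1.2% lower. In siPFDN5 it was 5 members, all higher (13.9%, against 12.2%, or 5.72% upward). Averaged over the 3 siRNAs 7 members were called (19.4%, against 14.9%), 4 higher and 3 lower, where 7.6% of all genes were higher and 7.31% lower. In either direction, the shares in siPFDN5 and in the average were thus close to those of all genes.

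The median log2 fold change of the 36 members was -0.05 in siControl, 0.17 in siPFDN2 and 0.29 in siPFDN5, against 0.01, -0.02 and -0.03 over all genes tested. With the GC trend taken out of each library, 7, 5 and 15 members were called in these comparisons, where 6.34%, 6.72% and 29.3% of all genes were. Without the second siPFDN2 library before serum it was 9, 5 and 24 members, against 9.95%, 4% and 36.3% of all genes. All groups share 1 estimate of the spread, so that library weighs on comparisons it is not part of. Without the first siPFDN2 library before serum, which leaves the GC-shifted one alone, it was 9, 30 and 24 members, against 9.79%, 48.6% and 36% of all genes.

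HSPB8 lay at 2.36 and 2.67 CPM in starved siControl cells and at 8.24 and 9.59 once serum was added. In siPFDN2 it went from 2.08 and 2.89 to 7.42 and 7.33, and in the libraries labelled siPFDN5 from 2.01 and 2.56 to 11.01 and 10.7. All 6 libraries after serum lay above all 6 before it. The log2 fold change was 1.83 ± 0.20 (SE, edgeR adjusted p = 0.000369) in siControl, a 3.55-fold rise. It was 1.56 ± 0.20 (edgeR adjusted p = 0.00137) in siPFDN2 and 2.25 ± 0.21 (edgeR adjusted p = 0.000115) in siPFDN5. These calls held in all 12 fits that each left out 1 library. The serum response under siPFDN5 differed from that in siControl by 0.42 ± 0.28, which did not pass (edgeR adjusted p = 0.429).

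DNAJB1 in siControl went from 86.5 and 93.5 CPM to 145 and 147. It went from 87.8 and 87.6 to 137 and 143 in siPFDN2, and from 76.1 and 80.3 to 190.4 and 192 in the siPFDN5 libraries. Again no library after serum overlapped with one before. The log2 rise was 0.69 ± 0.12 (edgeR adjusted p = 0.0103) in siControl, 0.68 ± 0.12 (edgeR adjusted p = 0.0138) in siPFDN2 and 1.29 ± 0.13 (edgeR adjusted p = 0.000176) in siPFDN5. The siPFDN5 call held in all 12 leave-one-out fits. The siControl call held in 8 of 12 and the siPFDN2 call in 10, with the fold change between 0.62 and 0.75 and between 0.65 and 0.72; the adjusted p reached 0.219 without the first siControl library before serum and 0.174 without the second siPFDN2 library after it.

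DNAJB4, a further cytosolic J-domain protein, went in siControl from 15.2 and 18.7 CPM to 29.3 and 29.2. Its siPFDN2 libraries before serum were far apart, at 20.5 and 9.87, and those after serum lay at 32.9 and 34.6. The siPFDN5 libraries went from 23.2 and 22.5 to 37.7 and 33.2. Every after-serum library lay above those before it with the same siRNA. The average over siRNAs rose by 0.86 ± 0.15 (edgeR adjusted p = 0.00419) and held in all 12 leave-one-out fits. In siPFDN2 alone the rise was 1.15 ± 0.27 (edgeR adjusted p = 0.0439), and it came to 0.72 (edgeR adjusted p = 0.00425) without the second library before serum, which had the lower value. That siPFDN2 call held in 2 of the 12 leave-one-out fits, with adjusted p up to 0.246.

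BAG1, a nucleotide exchange factor that links HSP70 to the proteasome, went in siControl from 26.3 and 26.2 CPM to 26.5 and 34.3. It was at 26.1 and 29.5, then 32.7 and 32.9, in siPFDN2, and at 21.8 and 21.9, then 36.1 and 34.1, in the siPFDN5 libraries. The groups before and after serum did not overlap under any siRNA, though in siControl the gap was narrow. BAG1 rose by 0.68 ± 0.15 in siPFDN5 (edgeR adjusted p = 0.0212) and by 0.38 ± 0.09 on average (edgeR adjusted p = 0.0169). The siPFDN5 call held in 8 of the 12 leave-one-out fits and was lost without any 1 of the 4 siPFDN5 libraries, with adjusted p up to 0.175. The average held in 5, with adjusted p from 0.000441 to 0.0707.

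HSPA8 and DNAJA1, a constitutive HSP70 and one of its constitutive J-domain partners, rose in the siPFDN5 libraries. HSPA8 went from 1466 and 1524 CPM to 2578 and 2269 in the libraries labelled siPFDN5 after serum. In siControl it stood at 1709 and 1803 before and at 1212 and 1635 after, the opposite order, and in siPFDN2 at 2119 and 1474 before and 2065 and 1998 after, which overlapped. The siPFDN5 rise was 0.70 ± 0.19 (edgeR adjusted p = 0.0401), and the siControl difference of -0.30 ± 0.19 did not pass. DNAJA1 went from 151 and 154 CPM to 232 and 222 under siPFDN5, while its siControl values of 161 and 156 before serum and 151 and 174 after it overlapped. Its siPFDN5 rise was 0.57 ± 0.17 (edgeR adjusted p = 0.0498). The HSPA8 call held in 4 of the 12 leave-one-out fits and the DNAJA1 call in 2, with adjusted p up to 0.237 and 0.262, and neither held in exon counts alone (edgeR adjusted p = 0.0910 and 0.115).

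The 3 members that fell were the inducible HSP70 genes HSPA1A and HSPA1B and the J-domain protein gene DNAJA4. HSPA1B went in siControl from 40.4 and 46.5 CPM to 29.4 and 33.3, and at 54.3 and 74.2 before and 39.0 and 36.6 after in siPFDN2. In the siPFDN5 libraries it stayed between 38.4 and 41.1. The libraries before and after serum thus overlapped only under siPFDN5. Its average log2 fold change over siRNAs was -0.40 ± 0.10 (edgeR adjusted p = 0.0189). In siPFDN2 alone it was -0.77 ± 0.17 (edgeR adjusted p = 0.0345), which came to -0.52 (edgeR adjusted p = 0.0133) without the second library before serum and to -0.37 (edgeR adjusted p = 0.0599) with the GC trend taken out. It held in 2 of the 12 leave-one-out fits, with adjusted p up to 0.287.

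HSPA1A had the same order at far lower values: 2.83 and 4.30 CPM before serum and 2.05 and 1.98 after it in siControl, and 4.17 and 6.18 before and 2.67 and 2.62 after in siPFDN2. Its siPFDN5 values of 2.79 and 2.35 before and 2.597 and 2.90 after overlapped. The average was -0.57 ± 0.14 (edgeR adjusted p = 0.0229). The coding sequences of the pair are 99.8% identical, with 4 differing bases of 1923, and the transcript estimates gave HSPA1A at most 3 counts in any library where the exon table held 159 to 697, which is why the split is called uncertain. DNAJA4 went from 37.2 and 32.0 CPM to 30.9 and 31.6 in siControl, at 36.5 and 38.3 and then 27.8 and 24.3 in siPFDN2, and at 36.04 and 36.8 and then 27.2 and 30.3 in the siPFDN5 libraries. It was the only 1 of the 36 members lower after serum without overlap under all 3 siRNAs, against 6.09% of all genes. Higher in that sense were 4 of the 36 (BAG1, DNAJB1, DNAJB4, HSPB8), against 7.25% of all genes. The DNAJA4 average was -0.34 ± 0.08 (edgeR adjusted p = 0.0207). Each of these 3 averages held in 5 of the 12 leave-one-out fits, and the highest adjusted p-values were 0.0826 for HSPA1A, 0.0846 for HSPA1B and 0.106 for DNAJA4, each without the first library labelled siPFDN5 after serum.

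**Figure D2:**
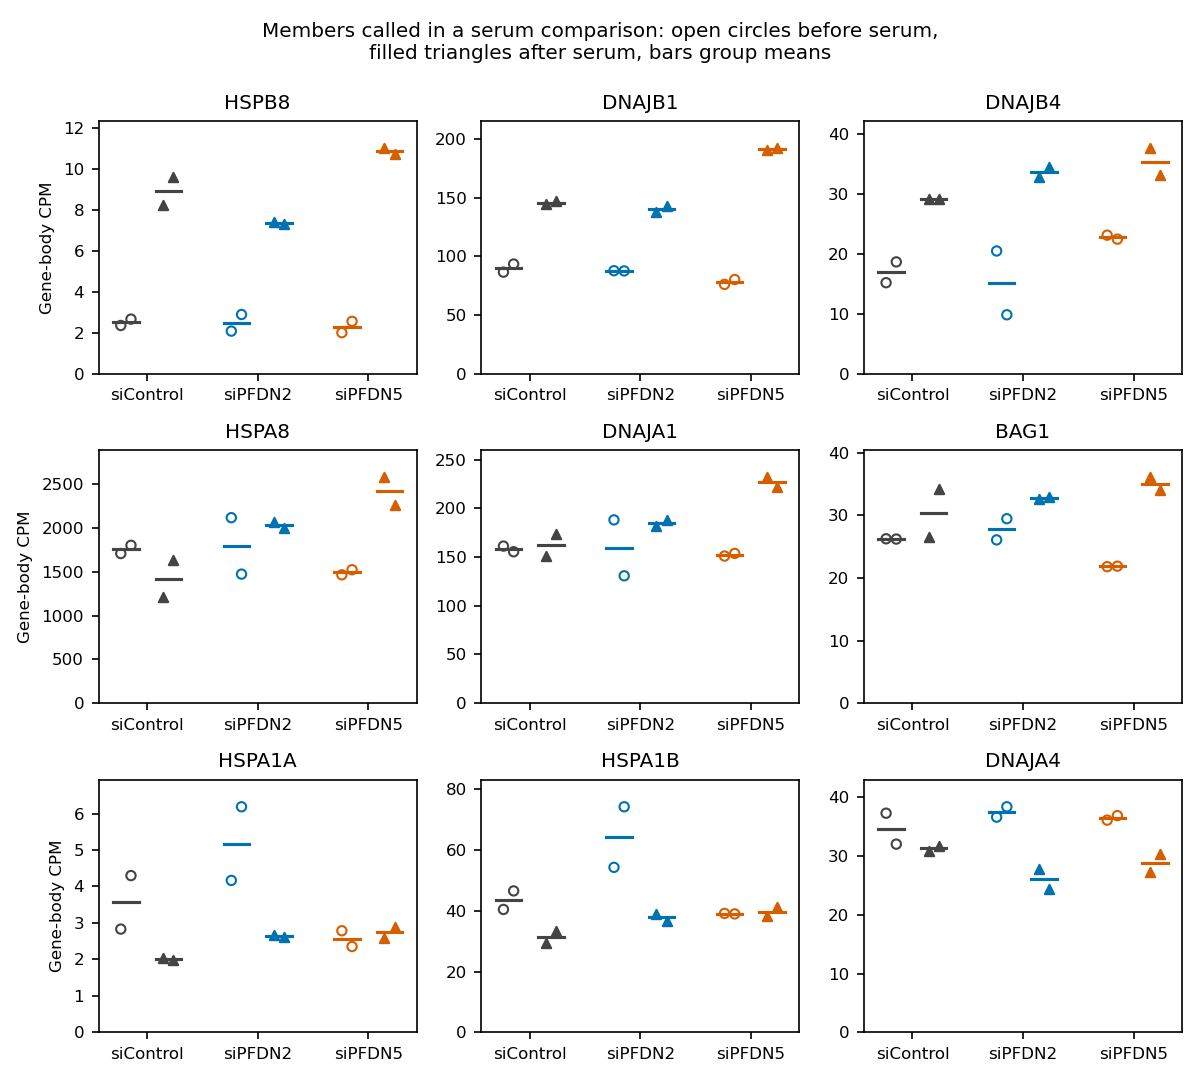
Gene-body CPM, from 0, for the 9 members called in a serum comparison; points are libraries (open circles before serum, filled triangles after), short bars are means of 2, and colours mark the siRNA. HSPB8, DNAJB1 and DNAJB4 lie higher after serum under each siRNA, whereas HSPA1A and HSPA1B lie lower under siControl and siPFDN2 and overlap under siPFDN5.

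Promoter sequence was available from RefSeq (GRCh38.p14) for 32 members in 49 windows of 300 bases, 250 before and 50 after an annotated start; FKBP4, HSF1, ST13 and STUB1 had no window. Heat shock elements were searched on both strands as 2 units (GAANNTTC or TTCNNGAA) and as 3 units (GAANNTTCNNGAA or TTCNNGAANNTTC, each of which contains a match to both 2-unit forms). The 2-unit element was found in 18 of the 32 members, and 16.2% of the 27305 genes with a window held one. The 3-unit element was found in 7 members (CHORDC1, DNAJA1, DNAJB6, HSP90AA1, HSP90AB1, HSPA8 and HSPD1), and 0.608% of all genes held one. The CArG box, the element bound by the serum response factor, was found in no member and in 1.6% of all genes.

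A stretch of 60 bases from each called member with an element is shown, to set the elements of the genes that rose beside those of the genes that fell. Each stretch lies before an annotated start and was chosen to hold the most element letters. Elements elsewhere in the windows are not shown. Among them are the 3-unit element of DNAJA1, 4 to 16 bases after its start, and a 2-unit element of HSPB8, 5 to 12 bases after. The stretches run 5′ to 3′ on the strand of the gene, with a 2-unit element or, in HSPA8, a 3-unit element in capitals. HSPA1A and HSPA1B are marked as fallen for their average over siRNAs, and under siPFDN5 their libraries before and after serum overlapped.
HSPB8 (rose; chr12:119178817-119178876, plus strand): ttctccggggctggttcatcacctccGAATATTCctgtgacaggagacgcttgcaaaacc
DNAJB1 (rose; chr19:14518426-14518485, minus strand): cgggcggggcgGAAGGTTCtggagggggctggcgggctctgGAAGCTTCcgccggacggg
DNAJB4 (rose; chr1:78004815-78004874, plus strand): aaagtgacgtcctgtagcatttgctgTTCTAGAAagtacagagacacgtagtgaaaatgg
HSPA8 (rose under siPFDN5; chr11:123062156-123062215, minus strand): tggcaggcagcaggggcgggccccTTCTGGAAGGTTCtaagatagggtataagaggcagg
DNAJA1 (rose under siPFDN5; chr9:33025049-33025108, plus strand): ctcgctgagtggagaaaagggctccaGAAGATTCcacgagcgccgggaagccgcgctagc
HSPA1A (fell; chr6:31815411-31815470, plus strand): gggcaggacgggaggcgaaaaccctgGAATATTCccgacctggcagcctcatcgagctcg
HSPA1B (fell; chr6:31827607-31827666, plus strand): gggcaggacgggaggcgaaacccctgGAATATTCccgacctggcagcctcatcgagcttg
DNAJA4 (fell; chr15:78264464-78264523, plus strand): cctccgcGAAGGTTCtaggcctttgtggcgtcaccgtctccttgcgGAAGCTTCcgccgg

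Of the 9 called members, 8 held a 2-unit element, and BAG1 held none. Of the 23 members with a window that were not called, 10 held one. HSPB8, which rose, and HSPA1A and HSPA1B, which fell on average but not under siPFDN5, carry the same 8 letters, GAATATTC. DNAJB1 and DNAJA4 both carry GAAGGTTC and GAAGCTTC. In the GRCh38 annotation of the count tables HSPB8 spans chr12:119178642-119221131 (plus strand) and DNAJB1 chr19:14514770-14529770 (minus strand). HSPB8 overlaps AC084880.3 and AC084880.1, HSPA8 holds SNORD14C, SNORD14D and SNORD14E, DNAJB1 overlaps TECR, DNAJB4 overlaps GIPC2, BAG1 overlaps SPINK4 and DNAJA4 overlaps WDR61, and fragments that fall in both genes of a pair count for both. The promoter matches describe the letters in the windows and do not show binding.

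The other HSP70 and HSP110 genes (HSPA4, HSPA4L, HSPA9 and HSPH1, which release nucleotide from HSP70 or, for HSPA9, act in mitochondria) passed in no serum comparison as counted. In siControl all 7 genes of this class had a fold change below 0, with a median of -0.30 and a highest value of -0.02. Under siPFDN2 and under siPFDN5 5 of the 7 were above 0, with medians of 0.18 and 0.10. Over all genes tested 51.6%, 48.5% and 48% were above 0 in siControl, siPFDN2 and siPFDN5. The HSP90 averages were 0.09 ± 0.08 for HSP90AA1 and 0.19 ± 0.09 for HSP90AB1, and neither passed. HSPD1 and its lid HSPE1 stood at 0.00 and -0.03 in siControl, 0.31 and 0.53 in siPFDN2 and 0.36 and 0.57 in siPFDN5, none of which passed. The small heat shock protein HSPB1 (HSP27) went from 55.5 and 51.3 CPM to 86.7 and 79.4 in siControl, a fold change of 0.64 ± 0.28 that did not pass (edgeR adjusted p = 0.382). With the GC trend taken out, HSPB1 was among the members called in siControl. Of all 7 HSP70 and HSP110 genes, 2 were then called in siControl, 0 in siPFDN2, 2 in siPFDN5 and 4 on average. Of HSPD1 and HSPE1, 1 was called in siPFDN5. The shares of all genes were 6.34%, 6.72%, 29.3% and 28.4%.

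The 9 other cochaperones include STIP1, which joins HSP70 to HSP90, AHSA1, which activates HSP90, the kinase adaptor CDC37 and the ubiquitin ligase STUB1. None passed in any serum comparison as counted. With the GC trend taken out, 1 of the 9 was called in siControl, 0 in siPFDN2, 2 in siPFDN5 and 1 on average. The shares of all genes were 6.34%, 6.72%, 29.3% and 28.4%. In siControl 7 of the 9 were below 0 (median -0.12), and in siPFDN2 6 of the 9 (median -0.14). Under siPFDN5 8 of the 9 were above 0 (median 0.24), FKBP5 being the exception. FKBP5, a peptidyl-prolyl isomerase of HSP90-steroid receptor complexes, had a fold change of 0.39 ± 0.16 in siControl, -0.43 ± 0.16 in siPFDN2 and -0.45 ± 0.16 in siPFDN5. HSF1 and HSF2 stayed within 0.56 of 0 in every serum comparison, and neither passed.

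**Figure D3:**
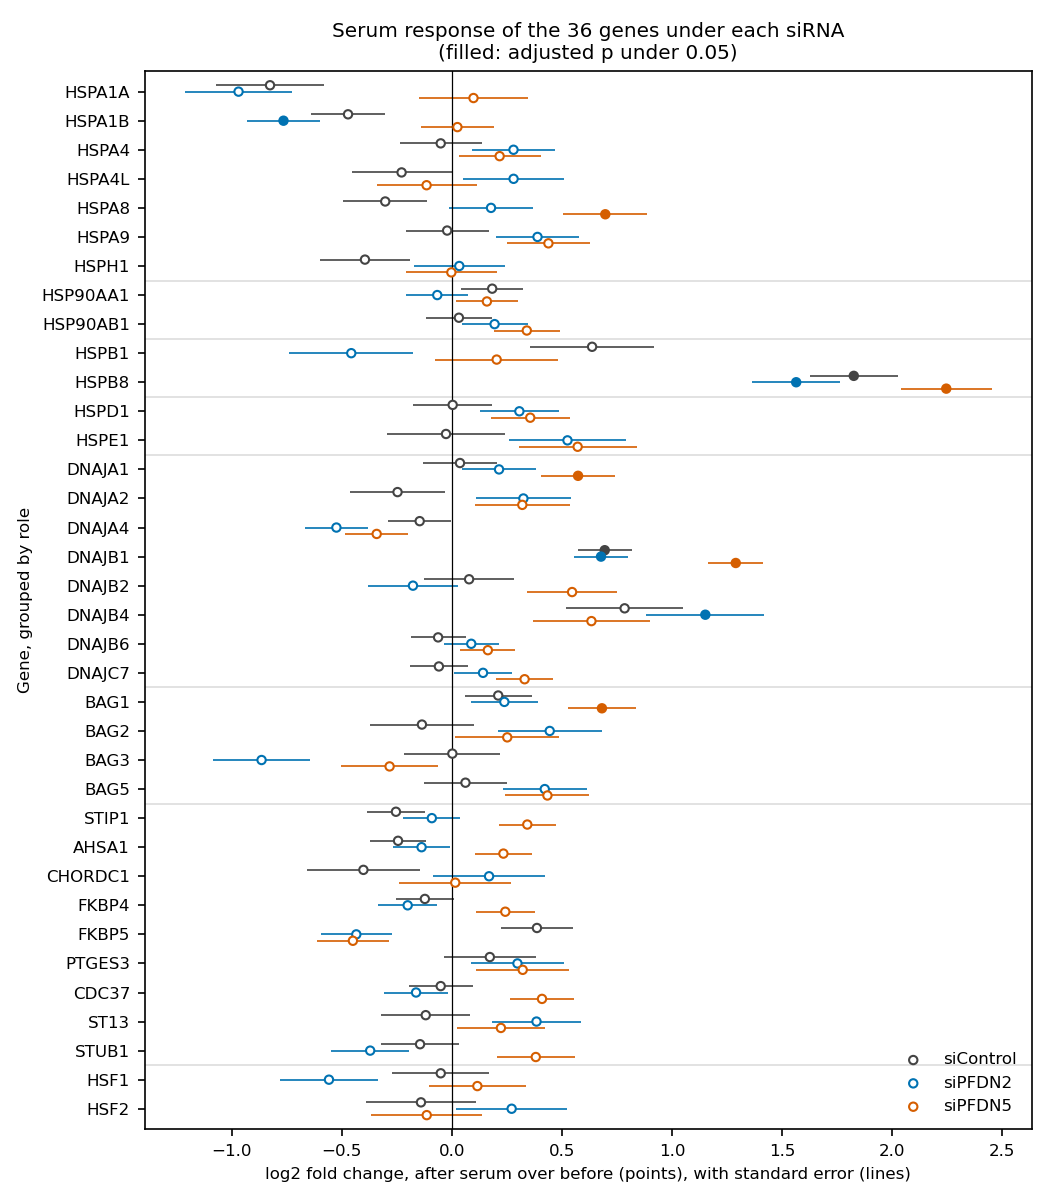
Log2 fold change after serum over before, with its standard error, for the 36 genes grouped by role and coloured by siRNA; filled points had an adjusted p under 0.05. HSPB8 (1.83, 1.56 and 2.25) and DNAJB1 (0.69, 0.68 and 1.29) are filled under all 3 siRNAs, and the siPFDN5 point lies to the right of the siControl point for 30 of the 36.

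Intronic counts are gene-body minus exon counts, and 33 members had enough of them to test on their own. They can hold unspliced RNA of the gene and, since strand was not used, reads of genes that overlap it, which cannot be told apart here. HSPB8 was the only member called in siControl and in siPFDN2 (3.03% of the members each, against 8.63% and 11.8% of all genes). Its intronic counts per library rose from 14 and 7 to 94 and 110 in siControl, from 18 and 28 to 39 and 52 in siPFDN2, and from 13 and 16 to 24 and 36 in the siPFDN5 libraries. The intronic log2 fold changes were 3.03 ± 0.36, 1.66 ± 0.34 and 1.45 ± 0.37 (edgeR adjusted p = 3.24e-05, 0.00427 and 0.0102). DNAJB1 rose in gene-body counts but not in intronic ones under siControl (-0.40) or siPFDN2 (-0.13), and 0.519% and 0.552% of its siControl counts were intronic after serum, against 1.09% and 1.05% before.

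Under siPFDN5 10 members were called in intronic counts, 6 higher (FKBP5, HSF2, DNAJB6 and ST13 were lower), which is 30.3% of the members against 27.8% of all genes. These fold changes are relative to the intronic total of each library. Scaled by the gene-body factors instead, an alternative chosen after seeing the data, none of the 6 higher members passed (HSPB8 at 0.77, edgeR adjusted p = 0.130, and HSPA8 at 0.77, edgeR adjusted p = 0.0617) and 12 members were lower, where 41.6% of all genes were called. FKBP5, HSF2, DNAJB6 and ST13 were among them, at -1.89, -1.66, -1.60 and -1.48. The intronic serum response differed between siPFDN5 and siControl in 3 members (12.5% of all genes) and, scaled by the gene-body factors, in 9 (31.8%). Over all genes the share of counts outside exons was 22.8% and 25.9% before serum and 17.2% and 14.8% after it in these libraries, and its part in these differences was not tested. Among 30 members with at least 10 intronic counts in every library, 26 had a lower intronic share in both siPFDN5 libraries after serum than in both before, as had 80% of 13388 genes. The figures were 18 members and 38% of genes in siPFDN2, and 7 members and 13.8% in siControl. In the siPFDN5 libraries DNAJB4 went from 27.2% and 25.1% intronic to 7.19% and 8.91%, and HSF2 from 16.9% and 15.2% to 5.23% and 5.76%. HSPD1, whose gene body overlaps HSPE1 on the other strand, was the only 1 of the 30 that was higher without overlap under siPFDN5. It went from 13.3% and 13.2% to 14.5% and 14.99%, and 5.65% of genes were higher in that sense. In siControl 4 of the 30 were higher without overlap, against 22.9% of genes, and in siPFDN2 1 of the 30, against 15%.

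Before serum no member passed the test between a knockdown and siControl. edgeR's test called 0 of 36 for siPFDN2 (0% of all genes), with 6 members under an unadjusted p of 0.05. For siPFDN5 it called 0 of 36 (0.00716% of all genes), with 3 under that unadjusted p. DESeq2 also called 0 in both. Here and below, counts under an unadjusted p stand without the share of all genes, as do DESeq2 counts of 0. They are therefore not shown to be particular to these genes. The smallest p-values for siPFDN2 belonged to HSPA1B (0.56 ± 0.17, edgeR adjusted p = 0.442), FKBP5 (0.44 ± 0.16, edgeR adjusted p = 0.442) and BAG3 (0.60 ± 0.22, edgeR adjusted p = 0.442). Their values without the second siPFDN2 library were 0.32, 0.24 and 0.17. Without the first, which leaves the GC-shifted library alone in its group, 26 members passed, where 41.8% of all genes did. For siPFDN5 they belonged to the HSP90 cochaperone FKBP4 (-0.38 ± 0.13, edgeR adjusted p = 0.301), HSPA4L (0.51 ± 0.23, edgeR adjusted p = 0.403) and HSPB1 (0.62 ± 0.28, edgeR adjusted p = 0.404).

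FKBP4 lay at 128 and 134 CPM in siPFDN5 against 173 and 168 in siControl, HSPA4L at 71.8 and 75.9 against 49.6 and 54.5, and HSPB1 at 78.4 and 85.9 against 55.5 and 51.3. None of the 3 overlapped with siControl. In all, 21 of the 36 members lay below both siControl libraries, against 30.5% of all genes, and 5 of the 36 above, against 32.9%. Without the second siPFDN2 library before serum these 3 and DNAJB4 passed for siPFDN5, 4 members where 6.96% of all genes passed. With the GC trend taken out HSPB1 alone passed, at 0.74 ± 0.13 (edgeR adjusted p = 0.0340), where 0.652% of all genes did.

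The members' 2 siPFDN2 libraries before serum differed by GC content. HSPB1 was at 57.0 CPM in the first and 123 in the second, HSF1 at 57.6 and 103, and BAG3 at 41.4 and 70.0. CHORDC1, with a GC content of 35%, went the other way, at 85.4 and 41.8. HSPE1 did so too, at 116 and 53.6, though its GC content was 50.2%. Of 10 members with a GC content of at least 55%, 8 were higher in the second library, against 1 of 15 under 45%. Across the 36 genes the log2 ratio of the second to the first library had a Pearson's r with GC of 0.86 in siPFDN2 and -0.08 in siControl, as a description over genes that share these libraries. The libraries labelled siPFDN5 after serum also had a high r, of 0.69, with smaller ratios, from -0.18 to 0.29. It was -0.13 in siControl and 0.15 in siPFDN2 after serum, and 0.05 in siPFDN5 before it. Before serum the ratio exceeded 0.5 in size for 22 members in siPFDN2 and for 1 in siControl.

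**Figure D4:**
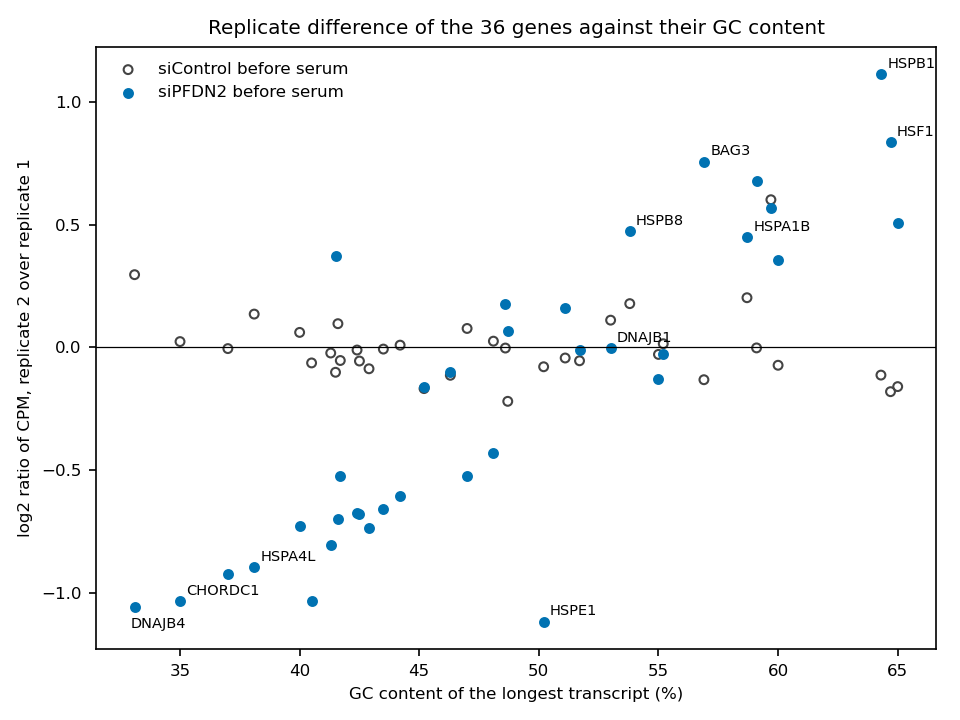
Log2 ratio of CPM in replicate 2 over replicate 1 before serum, against the GC content of the longest annotated transcript, for the 36 genes in siPFDN2 (filled) and siControl (open). The siPFDN2 points lie mostly higher at higher GC, with DNAJB4 at -1.06 and HSPB1 at 1.11. HSPE1, at a GC content of 50.2%, is the lowest at -1.12. In siControl 1 point lies more than 0.5 from 0.

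After serum no member passed between siPFDN2 and siControl either: edgeR called 0 of 36 (0% of all genes), with 2 under an unadjusted p of 0.05, and DESeq2 called 0. The smallest p-values belonged to HSPA8 (0.51 ± 0.19), FKBP5 (-0.38 ± 0.16) and DNAJA4 (-0.26 ± 0.14), all with an edgeR adjusted p of 0.772. For the libraries labelled siPFDN5 edgeR's test also called 0 of 36 (0.00358% of all genes), with 10 under an unadjusted p of 0.05, and DESeq2 called 5 (6.96% of all genes). The median of the members was 0.28, against -0.04 over all genes. In 26 of the 36 members both libraries labelled siPFDN5 lay above both siControl libraries, against 30.6% of all genes. In 2 of the 36 (DNAJA4 and FKBP5) they lay below, against 32.7%.

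HSPA8, at 2578 and 2269 CPM there against 1212 and 1635 in siControl, had a difference of 0.77 ± 0.19 (edgeR adjusted p = 0.0805). FKBP5 lay at 38.2 and 44.6 against 67.1 and 59.0, a difference of -0.61 ± 0.16 (edgeR adjusted p = 0.0899). AHSA1 lay at 120.4 and 122 against 82.6 and 92.9, a difference of 0.46 ± 0.13 (edgeR adjusted p = 0.0932). The libraries did not overlap in any of these, and none passed. Without the second siControl library after serum HSPA8 passed (edgeR adjusted p = 0.0257).

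With the GC trend taken out of each library 11 members passed, all higher, where 13.5% of all genes passed and 7.9% did so upward. They were the HSP70 genes HSPA1B (0.37), HSPA4L (0.65) and HSPA8 (0.81), the J-domain genes DNAJA1 (0.51), DNAJA2 (0.52), DNAJB1 (0.43), DNAJB2 (0.54) and DNAJB4 (0.36), and the HSP90 cochaperones STIP1 (0.49), AHSA1 (0.51) and CDC37 (0.43). The fold change of HSPA4L was 0.62 ± 0.23 as counted and 0.65 ± 0.09 with the trend taken out. The standard error was smaller in all of the 11 but STIP1, for which it was 0.13 as counted and 0.14. Without the second siPFDN2 library before serum 18 members passed, 17 of them higher and FKBP5 lower, where 23.9% of all genes passed. These libraries also had the highest epithelial marker sum, as given above, and their part in these differences was not tested.

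**Figure D5:**
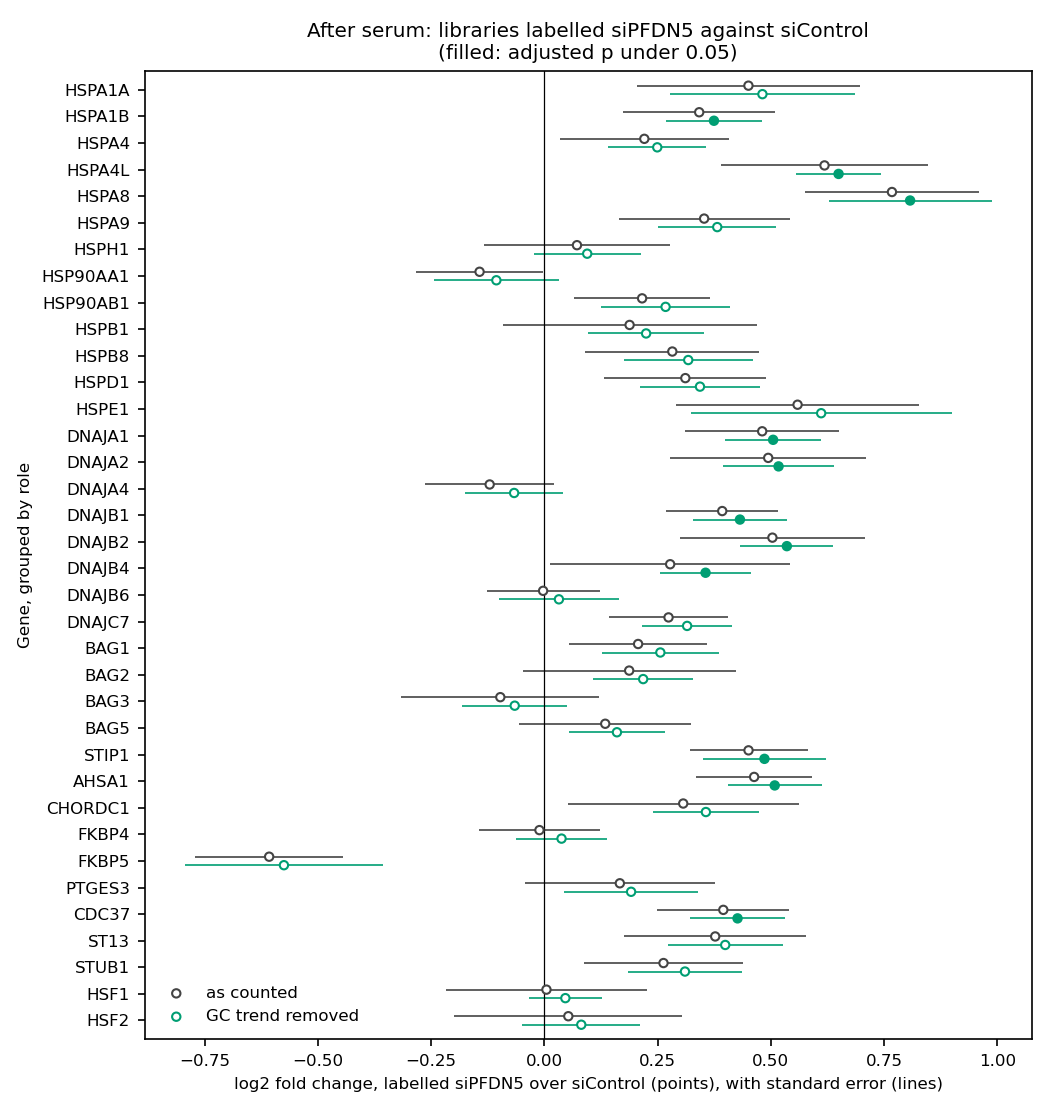
Log2 fold change of the libraries labelled siPFDN5 over siControl after serum, with its standard error, for the 36 genes as counted (grey) and with the GC trend taken out (green); filled points had an adjusted p under 0.05. No grey point is filled and 11 green ones are, from 0.36 for DNAJB4 to 0.81 for HSPA8, and FKBP5 lies lowest.

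The serum response itself was then compared between siRNAs. For siPFDN2 minus siControl edgeR's test called 0 of 36 (0% of all genes), with 3 under an unadjusted p of 0.05, and DESeq2 called 0. The smallest p-values belonged to FKBP5 (-0.82 ± 0.23), BAG3 (-0.87 ± 0.31) and HSPB1 (-1.09 ± 0.40), all with an edgeR adjusted p of 0.582. Without the second siPFDN2 library before serum, which held the highest BAG3 and HSPB1 levels of all 12, they came to -0.62, -0.44 and -0.43. Without the first, 24 members passed, where 37.7% of all genes did.

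For siPFDN5 minus siControl edgeR's test called 0 of 36 (0% of all genes), with 8 under an unadjusted p of 0.05, and DESeq2 called 4 (6.32% of all genes). The median of the members was 0.39, against -0.03 over all genes. HSPA8, which rose under siPFDN5 and was lower after serum in siControl without passing, differed by 1.00 ± 0.27 (edgeR adjusted p = 0.0988, or 0.0236 without the second siControl library after serum). FKBP5 differed by -0.84 ± 0.23 (edgeR adjusted p = 0.0997) and DNAJB1 by 0.60 ± 0.17 (edgeR adjusted p = 0.104). With the GC trend taken out 6 members passed, all higher (DNAJA1, HSPA8, DNAJB1, DNAJA2, CHORDC1 and BAG2), where 8.69% of all genes passed. Without the second siPFDN2 library before serum 21 passed, where 21.8% of all genes did. Both comparisons of siPFDN5 with siControl use the siControl libraries after serum, so they are not independent.

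Genes of the same pathway outside the 36 were counted from 2 lists. Of 37 further chaperones and cochaperones 36 passed the filter on low counts, and HSPA6, the strictly inducible HSP70, did not, at 0 to 0.0355 CPM. None of the 36 was called by edgeR in siControl, siPFDN2 or siPFDN5 (2, 11 and 8 had an unadjusted p under 0.05). Once the GC trend was taken out, 15 of them were called in siPFDN5, all higher (41.7%, against 29.3% of all genes), and 11 on average (30.6%, against 28.4%). Averaged over siRNAs 3 were called: the J-domain protein gene DNAJC9 (0.33 ± 0.09) and the mitochondrial nucleotide exchange factor gene GRPEL1 (0.37 ± 0.11) rose, and the heat shock factor gene HSF4 fell (-0.86 ± 0.22). Of 16 other heat-inducible genes 1 was called in siControl, 4 in siPFDN2, 5 in siPFDN5 and 4 on average, where 2.87%, 3.26%, 12.2% and 14.9% of all genes were. It was 4, 4, 14 and 10 of the 16 with the GC trend taken out, where 6.34%, 6.72%, 29.3% and 28.4% of all genes were.

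GADD45B, a stress-response and immediate-early gene, rose under all 3 siRNAs, by 2.58 ± 0.16, 2.53 ± 0.16 and 2.42 ± 0.16. UBB, a polyubiquitin gene, and ZFAND2A, which encodes a proteasome-associated zinc finger protein, rose under siPFDN5 (0.60 ± 0.14 and 0.74 ± 0.16). DEDD2 fell on average (-0.76 ± 0.10).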

How the data were processed

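The authors deposited 2 tables of counts per gene, 1 over the gene body and 1 over exons, made with featureCounts per the file headers on Ensembl release 87. Fragments on more than 1 gene counted for every one, and strand was not used; genes that overlap a neighbour therefore share reads with it. HISAT2 (version 0.12.2), featureCounts 1.5.2, kallisto 0.43 and GRCh38.p7 are named in the submitters' processing notes. The authors also deposited expected counts per transcript, which were rounded after summing by gene (release 29 names, 159239 of 173259 transcripts matched). Of their columns, 6 matched no sample and were not used.

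Counts were tested with edgeR 4.0.16 (TMM, quasi-likelihood, 12 libraries in 6 group means; R 4.3.3). CPM are scaled by library total and TMM factor. DESeq2 1.42.0, other scalings, no filter, a GC trend removed (lowess, span 0.3), the replicate number as a block, exon counts, transcript sums and each library left out were the alternatives. edgeR was also tested on simulated counts for serum in siControl (27221 genes). It recovered 57.9% of genes changed by 1 log2 unit and 100% of those changed by 2, with 6 false calls. The changed genes were drawn only from those with an average log2 CPM above 3. Recovery of smaller changes, or of genes at lower levels such as HSPB8 and HSPA1A, was not simulated. Named results are every member called in a comparison, or else the 3 with the smallest p. The members, lists and comparisons were chosen with earlier results of these data known. The values of 1 listed gene are not reported here.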

Additional observations from a re-analysis of the deposited data

Results flagged for a closer look

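In intronic counts the serum response of 3 members differed between the siPFDN5 libraries and siControl by the test of the difference itself, where 12.5% of all genes tested did. HSP90AB1 differed by 1.499 ± 0.35 (edgeR adjusted p = 0.0318), DNAJB1 by 1.246 ± 0.38 (edgeR adjusted p = 0.0436) and FKBP5 by -1.199 ± 0.36 (edgeR adjusted p = 0.0416). The HSP90AB1 intronic counts were 542 and 523 before serum and 346 and 578 after it in siControl, and 201 and 188 and then 304 and 293 in the siPFDN5 libraries. For FKBP5 they were 513 and 779 and then 861 and 595 in siControl, and 614 and 533 and then 161 and 213 in the siPFDN5 libraries. Scaled by the gene-body factors in place of the intronic totals, an alternative chosen after seeing the data, the differences were 0.71 (edgeR adjusted p = 0.160), 0.47 (edgeR adjusted p = 0.356) and -2.09 (edgeR adjusted p = 0.0105), so of these 3 FKBP5 alone passed.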

How the results depend on the processing

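All directions of the named members held under the alternatives, except HSPA1B in siPFDN2 against siControl before serum, at -0.18 in the sum of transcript estimates; the cause was not tested. The counts of members called moved more, above all where either siPFDN2 library before serum was left out or the GC trend of every library removed. The order below is serum in siControl, siPFDN2, siPFDN5 and the average, then siPFDN2 and siPFDN5 against siControl before serum, the same after serum, and the 2 differences of response. With the GC trend removed 7, 5, 15, 15, 0, 1, 0, 11, 0 and 6 members were called. With both siPFDN2 libraries before serum left out, chosen after seeing the data, it was 9 in siControl, 21 in siPFDN5, 4 for siPFDN5 before serum, 17 after it and 20 for its response. Without a filter it was 5, 8, 7, 9, 2, 0, 0, 4, 1 and 1, and with DESeq2 3, 7, 5, 8, 0, 0, 0, 5, 0 and 4. Library size alone gave 8 in siPFDN2 and 2 in siPFDN5, exon counts 3 in siPFDN5, and transcript sums 2 in siPFDN2 and 3 in siPFDN5. The share of all genes called moved as well, in siPFDN5 from 12.2% as counted to 29.3% with the GC trend removed. Many counts here and in the next 2 paragraphs have no such share beside them. The shifts are therefore not shown to be particular to the members, and their cause was not tested.

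Leaving out each library in turn, the counts ran from 1 to 9, 1 to 30, 2 to 24, 3 to 25, 0 to 26, 0 to 4, 0 to 0, 0 to 18, 0 to 24 and 0 to 21. The highest came without the first siPFDN2 library before serum (30 in siPFDN2), which leaves the GC-shifted library alone in its group, and the lone library is assumed to vary like the other groups. In intronic counts they ran from 1 to 2, 1 to 12, 0 to 11 and 4 to 11. Other intronic counts were 3, 3 and 14 in siControl, siPFDN2 and the average with the GC trend removed, 16 in siPFDN2 by library size, and 2 in siControl without both siPFDN2 libraries.

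The replicate numbers did not pair the samples: the differences between replicates 1 and 2 correlated by -0.322 to 0.592 between groups. With the replicate block 3 members were called in siPFDN5. With the block and the GC trend removed it was 4 in siControl, 13 in siPFDN5, 13 on average and 8 for siPFDN5 after serum, and 2 and 3 in intronic counts of siControl and siPFDN2. With 2 libraries a group, a member that missed the threshold is not shown to be unchanged.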

Other observations

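Estimated counts per transcript, which the comparisons above used only as gene sums, gave 14 members a leading transcript with at least 90% of the gene's counts, and 7 members 2 or more coding transcripts of at least 25%. DNAJB6, a J-domain protein that suppresses aggregation, had 2 such transcripts. Its DNAJB6-201 share was 41.1% and 38.0% in siControl before serum and 27.5% and 29.9% after it, 33.3% and 40.5% and then 24.2% and 24.0% in siPFDN2, and 26.8% and 24.97% and then 24.2% and 26.2% in the siPFDN5 libraries. The HSF2-202 share was 34.9% and 33.7%, then 22.2% and 27.9%, in siControl, 35.7% and 33.3%, then 34.2% and 30.5%, in siPFDN2, and 47.3% and 52.3%, then 37.0% and 38.4%, in the siPFDN5 libraries. Both genes were picked after their values were seen, and the shares were not tested.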
